A study of Saccharomyces kudriavzevii and Saccharomyces cerevisiae and Kluyveromyces marxianus with 12 samples.

Results

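The 40 genes described here encode the nuclear subunits of the mitochondrial respiratory chain and ATP synthase of the budding yeast *S. cerevisiae*, taken by their identifiers from the 6017 genes counted. They comprise 3 NADH dehydrogenases, 4 subunits of complex II (succinate dehydrogenase), 9 of complex III (the cytochrome bc1 complex), both forms of cytochrome c, 9 subunits of complex IV (cytochrome c oxidase) and 13 of the ATP synthase. The question addressed is how their transcripts responded when cells were moved from the temperature at which they grow best to the temperature that gives the strongest heat shock response.

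The heat shock group was held at 40 °C for 8 minutes and the control group at 33 °C for 8 minutes, with 2 biological replicates each. All 4 libraries came from the haploid laboratory strain BY4742 (MATα, ura3Δ0 leu2Δ0 his3Δ1 lys2Δ0), so both groups carry the same gene deletions, and cells were growing exponentially in YPD medium with 2% dextrose, a rich glucose medium. The 4 libraries belong to a series of 12 from 3 yeast species. One strain and a single time of treatment were sampled.

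In the respiratory chain, electrons from NADH and succinate pass through coenzyme Q to complex III, then by cytochrome c to complex IV, which reduces oxygen. The proton gradient built on the way drives the ATP synthase. *S. cerevisiae* has no proton-pumping complex I and uses simple NADH dehydrogenases on either face of the inner membrane in its place. Its respiratory genes are known to be repressed by glucose and activated by the Hap2/3/4/5 complex, which binds CCAAT. Several proteins of the chain exist in alternative forms: CYC7 and COX5B encode the forms of cytochrome c and of complex IV subunit 5 that are known for expression at low oxygen, against CYC1 and COX5A, which encode the main aerobic forms.

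The clearest differences lay in the alternative forms, so the DNA upstream of the 3 gene pairs is shown first. Each stretch runs from 350 to 101 bases before the start codon on the strand of the gene, in build R64 of the RefSeq genome. CYC7 is at chrV:80078-80327 (minus strand) and CYC1 at chrX:525985-526234 (plus). COX5B is at chrIX:154872-155121 (plus) and COX5A at chrXIV:531375-531624 (plus). NDE2 is at chrIV:302861-303110 (plus) and NDE1 at chrXIII:556576-556825 (minus). Capitals mark CCAAT, bound by the Hap complex, and AGGGG, bound by the general stress activators Msn2 and Msn4, each on either strand (ATTGG and CCCCT).
CYC7: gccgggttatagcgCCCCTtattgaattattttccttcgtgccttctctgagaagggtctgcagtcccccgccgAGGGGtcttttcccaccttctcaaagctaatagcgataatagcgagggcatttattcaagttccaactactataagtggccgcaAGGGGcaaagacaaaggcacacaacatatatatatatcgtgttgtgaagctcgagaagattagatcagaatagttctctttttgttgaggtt
CYC1: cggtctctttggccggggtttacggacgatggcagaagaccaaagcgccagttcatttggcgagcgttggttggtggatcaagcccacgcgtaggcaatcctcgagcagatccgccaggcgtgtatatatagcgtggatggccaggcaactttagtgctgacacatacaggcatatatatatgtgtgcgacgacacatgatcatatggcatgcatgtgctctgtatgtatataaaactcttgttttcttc
COX5B: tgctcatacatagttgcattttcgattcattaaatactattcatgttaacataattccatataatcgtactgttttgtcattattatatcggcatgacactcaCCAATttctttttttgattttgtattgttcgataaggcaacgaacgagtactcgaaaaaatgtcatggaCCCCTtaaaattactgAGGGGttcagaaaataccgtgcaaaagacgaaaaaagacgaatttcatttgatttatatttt
COX5A: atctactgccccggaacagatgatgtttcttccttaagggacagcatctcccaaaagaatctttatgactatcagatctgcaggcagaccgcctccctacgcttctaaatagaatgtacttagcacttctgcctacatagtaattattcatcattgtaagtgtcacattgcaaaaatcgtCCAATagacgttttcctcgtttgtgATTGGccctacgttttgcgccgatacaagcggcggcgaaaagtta
NDE2: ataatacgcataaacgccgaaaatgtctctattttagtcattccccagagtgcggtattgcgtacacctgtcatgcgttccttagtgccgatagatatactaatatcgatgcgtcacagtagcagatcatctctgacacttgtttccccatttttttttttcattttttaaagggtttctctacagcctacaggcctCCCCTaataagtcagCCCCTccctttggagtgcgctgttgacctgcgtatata
NDE1: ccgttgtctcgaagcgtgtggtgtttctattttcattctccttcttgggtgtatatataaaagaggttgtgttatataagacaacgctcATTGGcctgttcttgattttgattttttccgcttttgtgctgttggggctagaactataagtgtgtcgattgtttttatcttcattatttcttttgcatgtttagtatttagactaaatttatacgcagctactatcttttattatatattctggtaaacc
The stretches of CYC7, COX5B and NDE2 held 3, 2 and 2 copies of AGGGG, whereas those of CYC1, COX5A and NDE1 held 0. These pairs were picked with their fold changes known, and the share of all promoters with AGGGG was not counted for this stretch. CCAAT was found in the stretches of COX5A (2 copies), COX5B (1) and NDE1 (1), and in none of the other stretches shown.

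The libraries held 22476146 and 18911098 counts on genes in the heat shock group and 19787368 and 23476002 in the control group. Levels are given as CPM, counts scaled to a common library size after TMM, for comparisons of a gene between libraries, and as TPM, which is per transcript length, for comparisons between genes. The heat shock itself was evident in 6 known target genes, whose log2 fold changes lay between 4.19 and 7.05 (SSA4, a heat-induced Hsp70 chaperone). The strain label was checked by LEU2, LYS2 and URA3, which had 0 counts in all 4 libraries. HIS3, of which his3Δ1 removes a part, had between 1633 and 3494 counts. Of the mating-type genes, MF(ALPHA)1 had 99.6 and 80.7 CPM after heat shock against 1847 and 1816 CPM in the control. MF(ALPHA)2, of the same type, had 15.3 and 13.9 CPM after heat shock against 198 and 162 CPM in the control. Of the other mating type, MFA1 and MFA2 had between 1.10 and 3.25 CPM, but STE2 and BAR1 were not near 0. STE2 had 20.5 and 18.3 CPM after heat shock against 10.3 and 8.79 CPM in the control. BAR1 had 12.1 and 10.5 CPM after heat shock against 7.14 and 6.03 CPM in the control. Of the 5786 genes tested with the quasi-likelihood test of edgeR, 1947 (33.7%) were higher and 1894 (32.7%) lower after heat shock at an adjusted p under 0.05, so that 50.7% of the calls were higher. On the deposited TPM values limma gave 2716 higher and 1260 lower (68.3% higher), and the median log2 fold change of all genes was 0.26 there against 0.03 with TMM. Because of this shift, directions of small changes are read with TMM, and the TPM result is given beside the genes described where its call differs. All fold changes are relative to other mRNAs of the same library, with TMM to a trimmed mean of genes. A change in mRNA per cell and a change in the number of cells behind a library cannot be told apart.

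All 40 genes passed the filter on low counts, with at least 73 counts in every library. After heat shock 31 of the 40 (77.5%, against 33.7% of all genes tested) were higher and 1 was lower, CYC1 (against 32.7% of all genes). The remaining 8 were not called: COX4, COX5A, COX9, ATP1, ATP5, ATP14, ATP20 and NDE1. The median log2 fold change of the 40 genes was 0.63, with 0.49 to 0.78 over the 4 single pairs of a heat shock and a control library, and that of all genes tested was 0.03. A rise of at least 2-fold was called for 10 of the 40, against 11.7% of all genes tested. In 33 of the 40 both heat shock libraries lay above both control libraries in CPM (44.1% of all genes tested), and in 2, COX9 and CYC1, both lay below (41.3%).

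**Figure D1:**
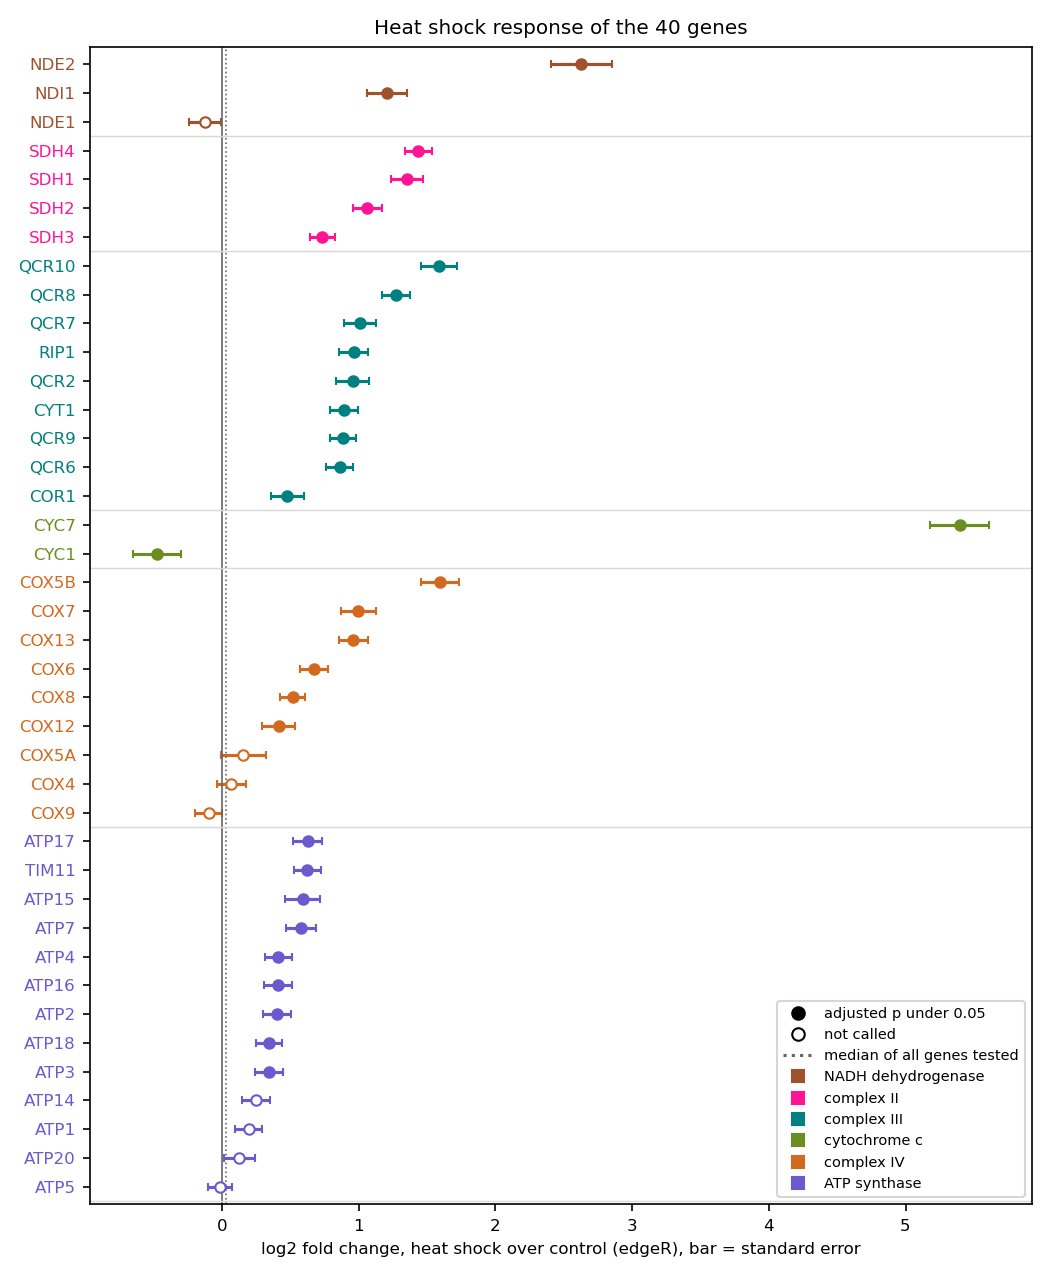
Log2 fold change of each of the 40 genes, heat shock over control, from edgeR with its standard error (n = 2 libraries each), grouped and coloured by complex, with filled points for an adjusted p under 0.05. The points run from -0.47 (CYC1) to 5.40 (CYC7), complexes II and III lie to the right of the dotted median of all genes tested, and the ATP synthase points sit between -0.01 and 0.63.

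Replicate 2 of the heat shock group gave higher values than replicate 1 for 38 of the 40 genes, with a median log2 difference of 0.21, whereas 50.1% of all genes tested were higher in it. Between the control libraries 21 of the 40 were higher in replicate 2. Without heat shock replicate 2, the median log2 fold change of the 40 genes was 0.51 in place of 0.63, and that of all genes tested was 0.02. Without heat shock replicate 1 the median of the 40 was 0.72, and that of all genes tested was 0.02. Leaving out heat shock replicate 2 cost more calls among the 40 than leaving out any other library. Among all genes tested, about as many calls were lost without heat shock replicate 1. The part of heat shock replicate 2 in the result was not tested further.

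At the entry of the chain, the 3 NADH dehydrogenases behaved differently from each other. NDI1 (YML120C), which oxidizes NADH on the matrix side, had 79.3 and 101 CPM after heat shock against 37.4 and 40.7 CPM in the control. This is a rise of 1.21 ± 0.15 on the log2 scale (SE, edgeR adjusted p = 0.000403), with no overlap between the groups. NDE1 (YMR145C), the main enzyme on the outer side, had 203 and 205 CPM after heat shock against 199.8 and 245 CPM in the control. These groups overlapped, and the log2 fold change of -0.12 ± 0.11 did not pass the test (edgeR adjusted p = 0.366). Without control replicate 1 it did (-0.29, adjusted p = 0.0166). NDE2 (YDL085W), its paralog, had 37.7 and 30.2 CPM after heat shock against 6.83 and 4.29 CPM in the control, a rise of 2.63 ± 0.22 on the log2 scale or 6.18-fold (edgeR adjusted p = 7.18e-05). NDE2 was nevertheless the least abundant of the 40 genes under both conditions, with 17.8 ± 3.0 TPM after heat shock and 2.43 ± 0.70 TPM in the control (SD, n = 2 each).

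Complex II feeds electrons from succinate, an intermediate of the citric acid cycle, into the chain, and its 4 subunit genes all rose, with a median log2 fold change of 1.21. SDH4 (YDR178W), a membrane anchor subunit, had 183 and 209 CPM after heat shock against 73.7 and 70.9 CPM in the control, a 2.71-fold rise (1.44 ± 0.10 on the log2 scale, edgeR adjusted p = 2.6e-05). SDH1 (YKL148C), the flavoprotein that holds the active site, had 154 and 189.6 CPM after heat shock against 64.3 and 70.1 CPM in the control, a 2.56-fold rise. SDH2 (YLL041C), the iron-sulfur subunit, had 139.5 and 164 CPM after heat shock against 75.0 and 70.4 CPM in the control. SDH3 (YKL141W), the other membrane anchor and the most abundant of the 4 by mean CPM, had the smallest rise, 1.66-fold, with 203 and 224 CPM after heat shock against 133 and 123 CPM in the control. No heat shock library overlapped a control library in any of the 4 genes. Of all genes tested, 44.1% had both heat shock libraries above both control libraries, and 33.7% were called higher. When each library was left out in turn, the lowest log2 fold change among the 4 genes was 0.64 (SDH3).

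Complex III transfers electrons from coenzyme Q to cytochrome c. All 9 of its genes rose, with a median log2 fold change of 0.96 and a range over the 4 library pairs of 0.81 to 1.12. QCR10 (YHR001W-A), a small subunit, had 98.2 and 119.8 CPM after heat shock against 36.1 and 36.5 CPM in the control, a 3.0-fold rise (1.59 ± 0.13 on the log2 scale, edgeR adjusted p = 6.16e-05). QCR8 (YJL166W), which contributes to the coenzyme Q binding region, had 184 and 213 CPM after heat shock against 78.7 and 85.5 CPM in the control, a 2.42-fold rise. The smallest changes were those of COR1 and QCR6. COR1 (YBL045C), a core subunit and the most abundant of the 9 by mean CPM, had 272 and 318 CPM after heat shock against 196 and 228 CPM in the control (0.48 ± 0.12 on the log2 scale, edgeR adjusted p = 0.0106). QCR6 (YFR033C), an acidic subunit, had 239.8 and 273 CPM after heat shock against 136 and 146 CPM in the control (0.86 ± 0.10 on the log2 scale). The remaining 5 genes encode the second core subunit (QCR2), the catalytic cytochrome c1 (CYT1) and Rieske iron-sulfur protein (RIP1) and the small subunits QCR7 and QCR9, with log2 fold changes between 0.88 and 1.01. In all 9 genes both heat shock libraries lay above both control libraries, against 44.1% of all genes tested. All 9 were called higher, against 33.7% of all genes tested. Without heat shock replicate 2 the median log2 fold change of the 9 was 0.81. That of COR1 was 0.34, and its call was lost.

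Cytochrome c carries electrons from complex III to complex IV, and its 2 genes moved in opposite directions. CYC7 (YEL039C), encoding iso-2 cytochrome c, had 142 and 178 CPM after heat shock against 4.55 and 3.10 CPM in the control. This 42.1-fold rise (5.40 ± 0.22 on the log2 scale, edgeR adjusted p = 3.96e-06) was the largest among the 40 genes and far exceeded the gap between replicates. CYC1 (YJR048W), encoding iso-1 cytochrome c, had 30.0 and 41.3 CPM after heat shock against 43.9 and 54.8 CPM in the control. Its log2 fold change of -0.47 ± 0.18 was only just past the threshold (edgeR adjusted p = 0.0478). The call was lost with library totals, with upper-quartile factors, with limma on TPM (-0.22, adjusted p = 0.331), and without heat shock replicate 1 or control replicate 2 (-0.26 and -0.30).

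**Figure D2:**
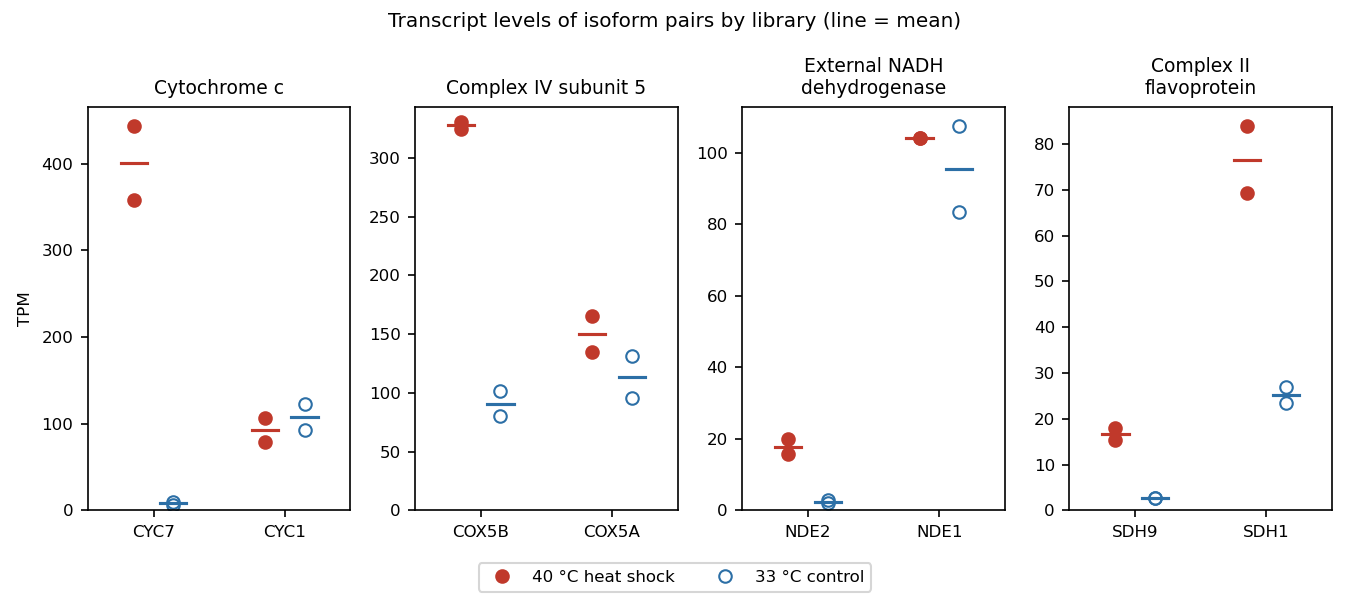
TPM of the 2 members of 4 pairs of related genes in each library, heat shock as filled points left of control as open points, with the mean of each group as a line. CYC7 lies at 358 and 444 TPM after heat shock against 9.34 and 6.70 TPM in the control, COX5B also stands clear of its control values, and the points of CYC1 and NDE1 overlap between the groups.

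Within each library the ratio of CYC7 to CYC1 in TPM was 4.56 and 4.16 after heat shock, against 0.1 and 0.0546 in the control. CYC7 thus made up 82.0% and 80.6% of the TPM of the pair after heat shock, against 9.10% and 5.17% in the control. In the order of the 40 genes by mean TPM, CYC7 stood at place 15 after heat shock and at place 39 in the control. The coding sequences of CYC7 and CYC1 are identical at 77.0% of aligned bases, with 35 bases as the longest shared run, so a read confined to such a run cannot be assigned to either gene. HTSeq leaves out reads with several alignments, which were 3.27% to 4.04% of each library.

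Complex IV gave a mixed picture: 6 of its 9 genes rose (66.7%, against 33.7% of all genes tested) and 3 were not called. The median log2 fold change was 0.52. COX5B (YIL111W), the alternative form of subunit 5, had 174 and 173 CPM after heat shock against 65.8 and 49.5 CPM in the control, a 3.02-fold rise (1.59 ± 0.14 on the log2 scale, edgeR adjusted p = 7.67e-05). COX5A (YNL052W), the aerobic form, had 72.2 and 89.5 CPM after heat shock against 62.7 and 82.1 CPM in the control. The COX5A groups overlapped, with a log2 fold change of 0.16 ± 0.17 (edgeR adjusted p = 0.429). The ratio of COX5B to COX5A in TPM was 2.45 and 1.96 after heat shock, against 1.06 and 0.612 in the control, without overlap. The coding sequences of this pair are identical at 67.5% of aligned bases, and the longest shared run is 12 bases.

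COX7 (YMR256C), a small subunit, had 88.0 and 106 CPM after heat shock against 47.2 and 49.7 CPM in the control, a 2.00-fold rise (edgeR adjusted p = 0.000462). COX13 (YGL191W), the most abundant of the complex IV genes by mean CPM, had 173 and 204 CPM after heat shock against 98.8 and 94.7 CPM in the control, a 1.95-fold rise. COX6, COX8 and COX12 rose by between 0.41 and 0.67 on the log2 scale, and the calls of COX8 and COX12 were lost without heat shock replicate 2. COX4 (YGL187C), a subunit needed for assembly of the enzyme, had 92.2 and 108 CPM after heat shock against 92.9 and 97.5 CPM in the control. COX9 (YDL067C) had 81.9 and 91.9 CPM after heat shock against 92.5 and 93.3 CPM in the control, with a log2 fold change of -0.10 ± 0.10 (edgeR adjusted p = 0.413). COX4 was not called (0.07 ± 0.10 on the log2 scale, edgeR adjusted p = 0.582), but limma on log2(TPM + 1) called it higher (0.32, adjusted p = 0.035). On TPM 7 of the 9 genes were thus called, while 2716 of 5868 genes tested were higher. The sign of COX9 turned on TPM, and that of COX4 without heat shock replicate 2.

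The ATP synthase had the smallest changes. Of its 13 genes 9 rose (69.2%, against 33.7% of all genes tested) and 4 were not called. None reached 2-fold, whereas a rise of at least 2-fold was called for 11.7% of all genes tested. The median log2 fold change was 0.40, with 0.25 to 0.48 over the 4 library pairs. ATP17 (YDR377W), a subunit of the membrane sector, had 186 and 213 CPM after heat shock against 136 and 123 CPM in the control, a 1.54-fold rise (0.63 ± 0.10 on the log2 scale, edgeR adjusted p = 0.00172). TIM11 (YDR322C-A), which encodes subunit e and takes part in forming dimers of the enzyme, had 114 and 119 CPM after heat shock against 80.6 and 70.6 CPM in the control, also a 1.54-fold rise. ATP20 (YPR020W), encoding subunit g, the partner of subunit e in dimers, had 37.3 and 43.2 CPM after heat shock against 34.5 and 39.1 CPM in the control. These ATP20 groups overlapped, and the log2 fold change of 0.13 ± 0.11 was not called (edgeR adjusted p = 0.346). ATP5 (YDR298C), which encodes the connector of the catalytic head to the stalk, had 171 and 189.7 CPM after heat shock against 184 and 180.3 CPM in the control, with a log2 fold change of -0.01 ± 0.09. The catalytic beta subunit ATP2 (YJR121W), the most abundant by mean CPM, had 938 and 1027 CPM after heat shock against 736 and 751 CPM in the control, a 1.32-fold rise (edgeR adjusted p = 0.0115). Its partner in the catalytic head, the alpha subunit ATP1 (YBL099W), had 849 and 895 CPM after heat shock against 780.0 and 744 CPM in the control, without overlap but short of the threshold (0.19 ± 0.10 on the log2 scale, edgeR adjusted p = 0.12). Per transcript length ATP15 (YPL271W), the epsilon subunit, led all 40 genes, with 1289 ± 119 TPM after heat shock and 717 ± 79 TPM in the control (SD, n = 2 each).

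Without heat shock replicate 2 the median log2 fold change of the 13 ATP synthase genes was 0.29 in place of 0.40. Fewer of the 13 were called higher in that fit than when any other library was left out. The log2 fold change of ATP2 was 0.31 in that fit, and its call was lost. With limma on log2(TPM + 1) all 13 were called, with a median of 0.65 against 0.26 for all genes. In that fit 2716 of 5868 genes tested were called higher.

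**Figure D3:**
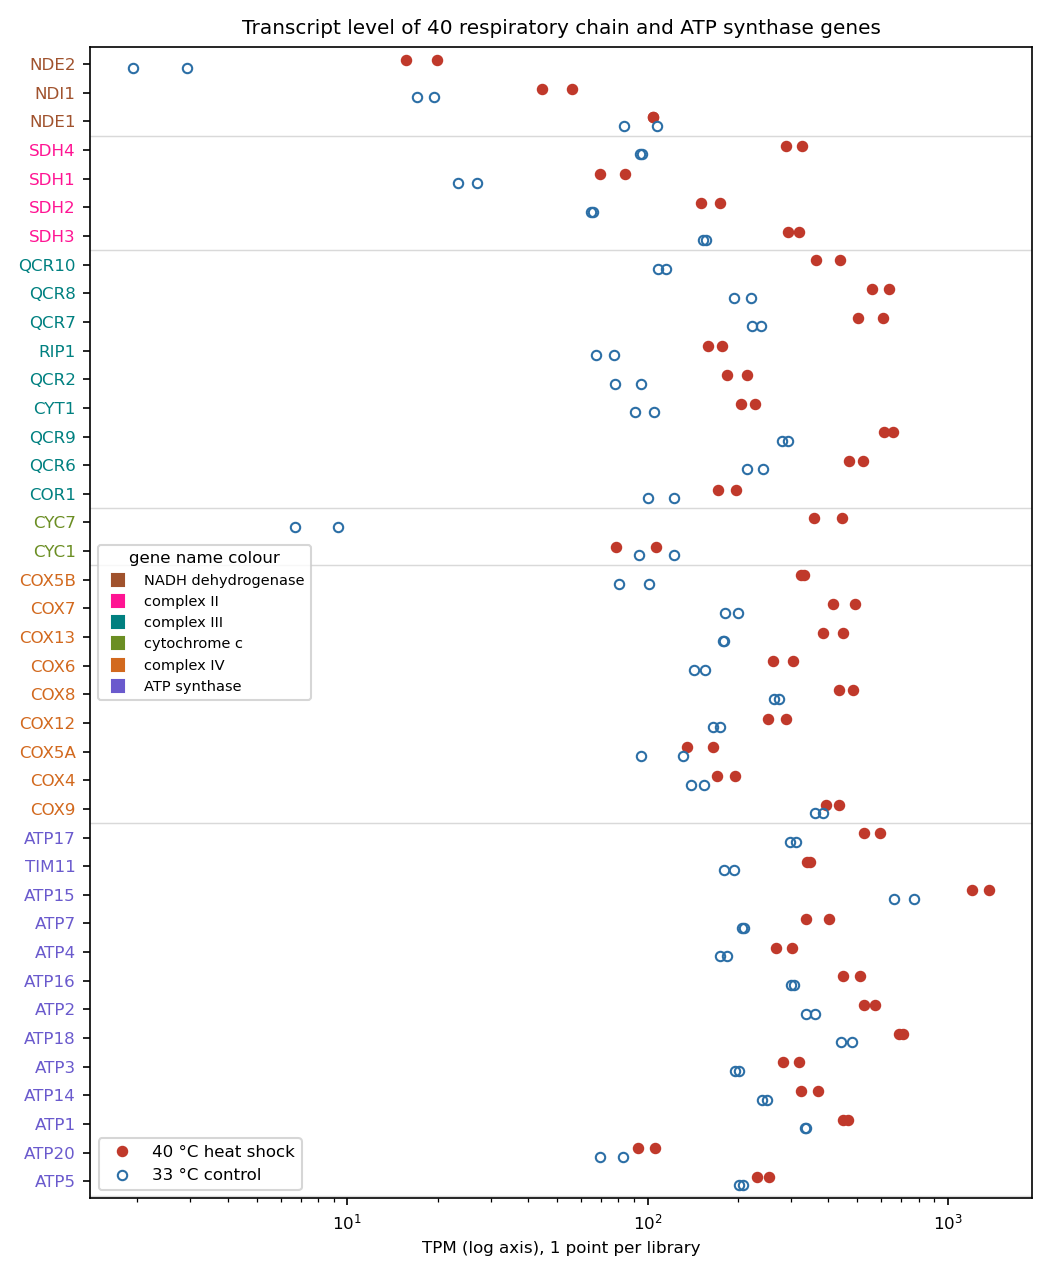
TPM of the 40 genes in each library on a log axis, heat shock as filled points just above control as open points, with gene names coloured by complex. Most filled points lie to the right of the open ones, ATP15 is the most abundant gene and NDE2 the least abundant under both conditions, and part of the offset is the scale of TPM, on which the median of all genes is shifted by 0.26 on the log2 scale.

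The 40 genes together took 0.794% and 0.871% of all counts on genes after heat shock, against 0.539% and 0.554% in the control. In these libraries the 137 ribosomal protein genes took 3.94% and 3.60% of the counts after heat shock, against 24.4% and 24.8% in the control. The other genes together therefore took a larger share, though not each of them. With the ribosomal protein genes left out of the total, a denominator chosen after the data were seen, the 40 genes took 0.827% and 0.904% after heat shock against 0.713% and 0.736% in the control. That total still holds the heat-induced genes, such as HSP26 with 494913 and 397534 counts after heat shock against 9647 and 4424 in the control. With TMM, 9 of the 13 ATP synthase genes were called higher. On the total without ribosomal protein genes these 13 took 0.409% and 0.439% after heat shock against 0.417% and 0.412% in the control. These groups overlapped. Complex III took 0.185% and 0.208% after heat shock against 0.124% and 0.139% in the control, and complex II 0.0725% and 0.0812% after heat shock against 0.0447% and 0.0446% in the control. The shares of these smaller complexes did not overlap on that total.

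The subunits encoded by mitochondrial DNA could not be followed. COX1, COX2, COX3, COB, ATP6, ATP8 and OLI1 had between 0 and 4 counts per library and did not enter the test. The libraries were made from poly(A) RNA, and mitochondrial mRNAs of *S. cerevisiae* are known to lack poly(A) tails.

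Genes that encode related proteins or serve the 40 subunits were described by lists. Among 7 other nuclear subunits and alternative forms, 5 rose (71.4%, against 33.7% of all genes tested). Of the rest 1 fell (against 32.7% of all genes tested) and 1 was not called. COX26, a small complex IV subunit, had 12.1 and 12.6 CPM after heat shock against 1.24 and 1.32 CPM in the control (3.26 ± 0.20 on the log2 scale, edgeR adjusted p = 1.66e-05). RCF2, a factor of respiratory supercomplexes, was the gene that fell (-0.37 ± 0.08 on the log2 scale, edgeR adjusted p = 0.00642). This call was lost on TPM (-0.11, adjusted p = 0.234). SDH9, a paralog of SDH1 named after its values were seen, had 34.1 and 40.4 CPM after heat shock against 7.29 and 7.13 CPM in the control. The ratio of SDH9 to SDH1 in TPM was 0.224 and 0.215 after heat shock against 0.115 and 0.103 in the control. For the paralogs of the membrane anchors the ratios went the other way: SHH3 to SDH3 was 0.134 and 0.103 after heat shock against 0.158 and 0.148 in the control. The ratio of SHH4 to SDH4 was 0.122 and 0.105 after heat shock against 0.15 and 0.144 in the control.

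All 3 genes (against 33.7% of all genes tested) for small proteins that inhibit the ATP synthase, or that stabilise the inhibited enzyme, rose, with fitted fold changes above those of all 13 genes of the enzyme. INH1, the inhibitor that blocks ATP hydrolysis, had 136 and 156 CPM after heat shock against 66.7 and 58.5 CPM in the control, a 2.34-fold rise. STF1, a paralog of INH1, had 339 and 329 CPM after heat shock against 74.7 and 46.6 CPM in the control, a 5.52-fold rise. STF2, first described as a stabilising factor of the inhibited enzyme, had 945 and 1111 CPM after heat shock against 88.7 and 50.7 CPM in the control. Its rise was 14.8-fold (3.88 ± 0.27 on the log2 scale, edgeR adjusted p = 3.05e-05).

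Assembly factors were counted in the same way, against 33.7% higher and 32.7% lower of all genes tested. Of 29 factors for complex IV, 20 rose (69.0%) and 1 fell, with a median log2 fold change of 0.65. PET117 rose most (1.40 ± 0.19 on the log2 scale), and COX19, which fell by 0.32 on the log2 scale (edgeR adjusted p = 0.0238), was not called by DESeq2 (adjusted p = 0.0538) or on TPM. Of 17 factors for complexes II and III and cytochrome c, 10 rose (58.8%), led by SDH6 (2.11 ± 0.17), with a median of 0.45. Of 13 factors for the ATP synthase, 7 rose (53.8%), led by AEP3 (0.90 ± 0.11), with a median of 0.28. Of 11 genes for synthesis of coenzyme Q, the electron carrier before complex III, 9 rose (81.8%), led by COQ4 (1.53 ± 0.10), with a median of 0.78.

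In the list of regulators 6 of 16 rose (37.5%), close to the 33.7% of all genes tested. A fall was called for 3, against 32.7% of all genes tested, and the median log2 fold change was 0.09. HAP4, the glucose-repressed activating subunit of the Hap complex, had 84.6 and 87.5 CPM after heat shock against 71.4 and 79.6 CPM in the control (0.19 ± 0.10 on the log2 scale, edgeR adjusted p = 0.146). It was called higher on TPM (0.43, adjusted p = 0.0138) and without control replicate 2 (0.27, adjusted p = 0.0255). ADR1, an activator of genes for the use of carbon sources other than glucose, rose most, with 65.0 and 61.6 CPM after heat shock against 19.0 and 19.9 CPM in the control (1.70 ± 0.09, edgeR adjusted p = 9.21e-06). ROX1, a repressor of hypoxic genes, had 95.0 and 82.1 CPM after heat shock against 126 and 119.7 CPM in the control. Its fall of 0.47 on the log2 scale (edgeR adjusted p = 0.00545) did not pass the test on TPM (-0.22, adjusted p = 0.109).

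**Figure D4:**
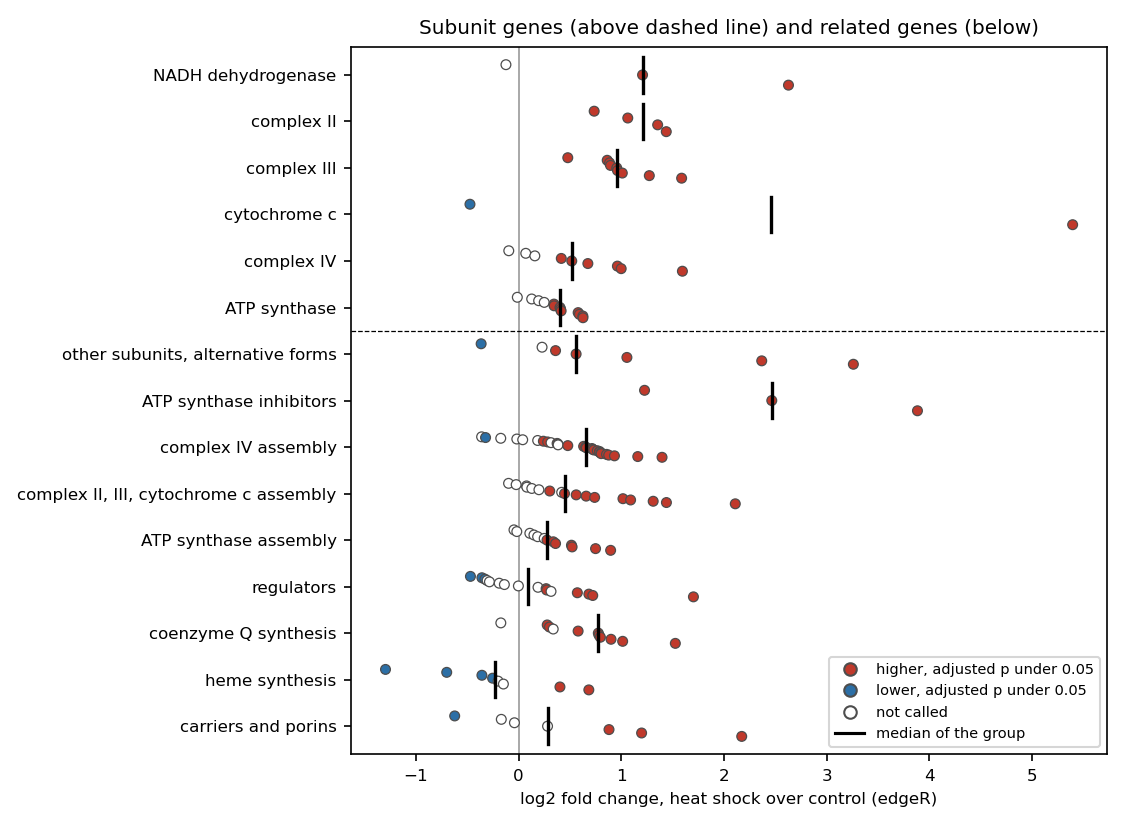
Log2 fold change, heat shock over control, of the subunit genes by complex (above the dashed line) and of related gene lists (below it), 1 point per gene, red for higher, blue for lower and white for not called, with the median of each group as a black line. The medians run from 0.40 (ATP synthase) to 2.46 (the 2 cytochrome c genes) above the line, the ATP synthase inhibitors stand at 2.47, and heme synthesis is the only group with a median below 0, at -0.23.

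Promoters of the 40 genes were searched on both strands from 250 bases before to 50 after the start codon and set beside the 6002 promoters of nuclear protein-coding genes. CCAAT, the Hap complex motif, was in 33 of the 40 (82.5%), against 43.3% of all promoters. AGGGG, the Msn2/4 motif, was in 19 (47.5%), against 21.6% of all promoters, and 16 held both motifs, against 9.43%. The heat shock element units TTCNNGAA and GAANNTTC, which read alike on both strands and can overlap each other, were in 6 and 3 of the 40, against 12.9% and 11.8% of all promoters. The Hap1 motif was in QCR6 alone, against 0.133% of all promoters. The members with AGGGG had a median log2 fold change of 0.96 and the 21 without it 0.41. Over all genes these medians were 0.39 with the motif and -0.05 without it. For CCAAT the medians of the members were 0.63 with the motif and 0.48 without it. These matches describe letters in a window and do not show binding. With a window of 500 bases before the start codon, chosen after the data were seen, CCAAT was in 36 (62.4% of all promoters) and AGGGG in 19 (34.1%).

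**Figure D5:**
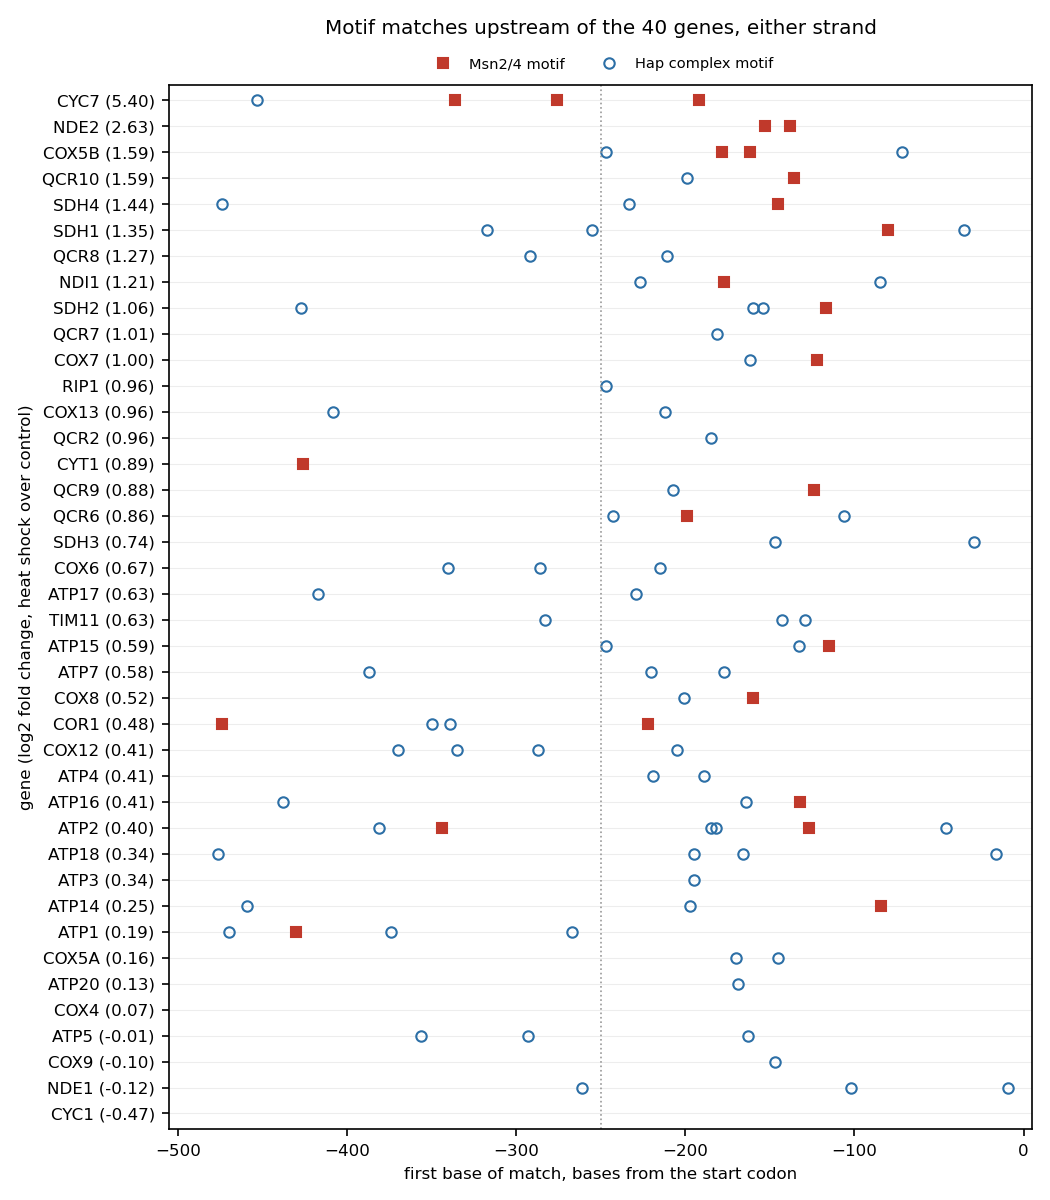
Matches of the Hap complex motif (circles) and the Msn2/4 motif (squares) on either strand within 500 bases before the start codon, for the 40 genes in order of their log2 fold change (in brackets), with a dotted line at 250 bases. CYC7, NDE2 and COX5B at the top hold 2 or more Msn2/4 motifs, as do COR1 (0.48) and ATP2 (0.40) with smaller rises, whereas the 7 genes at the bottom, and also QCR8 (1.27) and QCR7 (1.01), hold none in this window.

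The size of the response was only weakly related to other properties of the genes. Across the 40 genes Spearman's rho of the log2 fold change with mean log2 TPM was -0.23, and with coding length it was 0.04. These genes share libraries and are not independent replicates. The coding lengths ran from 180 to 1923 bases, 3 of the genes have 2 coding exons, and none overlaps another annotated gene.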

How the data were processed

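Poly(A) RNA was sequenced from 2 heat shock and 2 control cultures of *S. cerevisiae*. The other 8 libraries, of *S. kudriavzevii* and *K. marxianus*, were not used here. The authors trimmed reads with Trim Galore 0.6.10, aligned them with STAR 2.7.10b to R64 and counted them on coding sequences with HTSeq 2.0.2 without strand. The deposited counts are whole reads per gene, without normalization, and each table ends with 5 tallies of reads given to no gene (between 5.91% and 6.60% of reads), which were left out. The deposited TPM values, calculated by the authors from counts and gene lengths, stand stacked in a single column and were read as a score. Groups were taken from the labels.

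Counts were fitted in R 4.3.3 with edgeR 4.0.16 (TMM, filterByExpr, glmQLFit, glmQLFTest, two-sided), with Benjamini-Hochberg adjustment over all 5786 genes tested and calls at an adjusted p under 0.05. Replicates are labelled as biological. An exact permutation test of 2 against 2 libraries cannot go below p = 0.333. Alternatives were DESeq2 1.42.0, limma 3.58.1 on log2(TPM + 1) and log2(TPM + 0.1), other scalings and filters, a replicate block and leaving out each library. In simulated counts of this comparison 99% of the 2-fold and 100% of the 4-fold changes were recovered. Every gene was given the same dispersion (0.0112) there. Only 100 genes were changed at each size, as many up as down, and all lay above a floor in mean count. Far more genes were called in the data, so the simulation did not cover a shift of that extent. Changes under 2-fold, the size of most rises called among the 40 genes, were not simulated. Motifs and sequences were read from the R64 genome, and coding sequences were aligned with Biopython 1.88.

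The 40 genes and the lists were chosen with earlier results of these data known. The genes named with values were both members of each pair of alternative forms, NDI1, in each complex the 2 highest, the 2 lowest and the most abundant, in each list the largest called rise and fall, and HAP4, INH1, STF1, STF2 and the mitochondrial genes. ATP1, ATP15 and the complex II paralogs were added after their values were seen.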

Additional observations from a re-analysis of the deposited data

How the results depend on the processing

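With all 4 libraries kept, the number of the 40 called higher was 31 or 32 in all alternatives except limma on TPM (36). Of 5868 genes tested on TPM, 2716 were higher with log2(TPM + 1) and 2711 with log2(TPM + 0.1). Among the fits that left out a library, the one without heat shock replicate 2 lost the most of these calls. The median log2 fold change of the 40 was 0.51 there, against 0.57 to 0.72 when another library was left out. The difference between the median of the 40 and that of all genes lay between 0.50 and 0.70 over all alternatives. Leaving out 1 library each left 1 residual degree of freedom, so that the lone library is assumed to vary like the other group. The medians were then 0.81 to 1.05 for complex III and 0.40 to 0.60 for complex IV. Those of the ATP synthase were 0.29 to 0.47 and those of complex II 1.05 to 1.34. With library totals, upper-quartile factors and limma on TPM 0 of the 40 genes were called lower. Of all genes tested, 1775 were lower with library totals and 1832 with upper-quartile factors. With limma on log2(TPM + 1) and log2(TPM + 0.1), the genes lower in all were 1260 and 1261, and the medians were 0.877 and 0.879 for the 40 genes, 1.20 and 1.21 for complex III, 0.766 and 0.768 for complex IV, 0.653 and 0.654 for the ATP synthase and 1.43 and 1.45 for complex II. With the smaller pseudocount they were 2.71 for cytochrome c and 1.45 for the NADH dehydrogenases. The cause was not tested beyond the shift of the median of all genes.

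Signs turned only for genes that were not called: with limma on log2(TPM + 0.1) and log2(TPM + 1) for COX9 (0.16 and 0.15), ATP5 (0.24 and 0.24) and NDE1 (0.14 and 0.14), for ATP5 also with library totals (0.0149) and upper-quartile factors (0.0061), and among the fits that left out a library for COX4 (-0.068 to 0.18), COX5A (-0.0488 to 0.36), ATP5 (-0.11 to 0.0599), ATP20 (-0.0039 to 0.23) and NDE1 (-0.29 to 0.0297). The shares of the 40 genes were 1.40% after heat shock and 0.746% in the control in TPM, and the control share was 0.724% without ribosomal protein genes. GAANNTTC was in 6 promoters with 500 bases.

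Deviations of same-numbered libraries correlated (0.567 over 5786 genes). With 2 pairs and no shared batch in the labels, what these libraries share beyond a number was not tested. The replicate block gave 2210 genes higher and 2092 lower in all and 32 of the 40 higher and 1 lower. ATP14 was the gene added (0.25, adjusted p = 0.0185).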

Other observations

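Heme and carrier genes serve the respiratory chain. Heme is the cofactor of complexes III and IV and of cytochrome c. Of the 8 genes for its synthesis 2 rose (25.0%, against 33.7% of all genes tested) and 4 fell (against 32.7%). Their median log2 fold change was -0.23. HEM1 is also among the regulators. HEM13, which encodes the oxygen-dependent coproporphyrinogen oxidase, had 63.7 and 70.1 CPM after heat shock against 173 and 156 CPM in the control. It fell by 1.30 on the log2 scale (edgeR adjusted p = 4.13e-05). HEM14, a later enzyme of the pathway, had 24.3 and 24.7 CPM after heat shock against 14.4 and 16.0 CPM in the control, a rise of 0.68 on the log2 scale.

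Of the 7 genes for carriers of ATP, ADP and phosphate and for porins, 3 rose (42.9%, against 33.7% of all genes tested). A fall was called for 1, against 32.7% of all genes tested. PIC2, a phosphate and copper carrier, had 271 and 241 CPM after heat shock against 65.7 and 48.0 CPM in the control, a 4.51-fold rise (edgeR adjusted p = 3.71e-05). AAC3, a form of the ADP/ATP carrier known for expression without oxygen, fell by 0.62 on the log2 scale, with 16.3 and 15.0 CPM after heat shock against 24.7 and 23.6 CPM in the control. CYC7 and COX5B, the subunit forms known from low oxygen, were thus higher after heat shock while HEM13 and AAC3, also known from low oxygen, were lower. HEM13 and AAC3 were named as the largest called falls of their lists. Low-oxygen genes as a set were not tested.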
